A study of Mus musculus with 6 samples.

Results

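The genes described here act in mitochondrial fusion and in mitophagy, the autophagic removal of mitochondria. They are 10 genes taken by symbol, Mfn1, Mfn2, Opa1, Oma1, Yme1l1, Pink1, Bnip3l, Fundc1, Phb and Phb2, of 25664 genes in the count table. They were chosen for what they are known to do, though with earlier results of these data known. All 10 passed the filter on low counts. RNA was sequenced from alveolar macrophages, the phagocytes that live in the airspaces of the lung, sorted from mouse lavage fluid. There were 3 libraries from Vav1cre/+ Pex5fl/fl mice, called Pex5-deficient after their label, and 3 from Pex5fl/fl mice, called control. Both groups carry the floxed Pex5 alleles, and the recombinase is present only in the first, so no library shows the recombinase without floxed alleles. Vav1-Cre acts in blood-forming cells and their progeny and is not limited to macrophages. The sources used here do not give the age or sex of the mice.

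Mitochondria fuse in steps. The mitofusins, MFN1 and MFN2, are GTPases that join outer membranes, and OPA1, a GTPase of the inner membrane, joins the inner membranes and keeps the cristae narrow. The proteases OMA1 and YME1L cut OPA1, and the prohibitins PHB and PHB2 form rings in the inner membrane that hold these proteases and OPA1 in balance. Damaged mitochondria are marked by the kinase PINK1, which accumulates on their surface and recruits the ubiquitin ligase Parkin, while BNIP3L (also called NIX) and FUNDC1 are receptors in the outer membrane that bind LC3-type proteins of the autophagosome directly. Mitochondria are tied to peroxisomes: both organelles share the division factors DRP1, FIS1 and MFF, and cells that cannot import peroxisomal matrix proteins are known to have altered mitochondria. Whether transcripts of fusion and mitophagy genes differ in macrophages labelled as lacking PEX5, the import receptor of peroxisomes, is the question put to these data.

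Library totals ran from 13325609 to 19413838 counts. Pex5-deficient replicate 2 stood apart: the 50 genes with the highest mean level held 30.4% of its reads and 38.3% to 42.1% of those of any other library, and its scaling factor was 1.34, against 0.899 to 1.03. Pex5 itself measured 31.4, 36.3 and 29.6 counts per 1000000 (CPM) in Pex5-deficient replicates 1 to 3, against 33.0, 32.1 and 29.7 CPM in control replicates 1 to 3. A count over a whole gene keeps reads from exons outside the loxP sites, so this does not check the labels. All 12 markers of alveolar macrophages on the list were detected, led by Chil3, a chitinase-like protein, with 26030 to 63070 CPM over the Pex5-deficient libraries and 34970 to 54040 CPM over the control libraries. Of these 12, 3 fell in the test (Siglecf, Krt79 and Ear1), where 1.51% of all genes tested were called lower. The list had 10 log2 fold changes below 0 and 2 above, with a median of -0.42. Of 9 neutrophil markers 4 could be tested, and of these Cxcr2 and S100a8 rose. Mmp8, the most abundant of the list over the 6 libraries, had 38.8 to 107 CPM in Pex5-deficient and 35.4 to 38.8 CPM in control libraries, and Csf3r, at 19.5 to 38.2 CPM in Pex5-deficient and 32.5 to 48.1 CPM in control libraries, had a log2 fold change of -0.52. Neither passed the test. The defining genes Ly6g, S100a9, Retnlg, Ngp and Camp had 0 counts in every library, while S100a8 had 83 to 722 counts. Whether the 0 counts come from absent transcripts or from the way genes were counted was not tested. The summed level of that list was 125 to 188 CPM in Pex5-deficient and 84.3 to 98.6 CPM in control libraries, and its part in the values below was not tested. Erythroid markers, listed because BNIP3L clears mitochondria from maturing red cells, summed to 0.0782 to 5.08 CPM in Pex5-deficient and 0 to 0.0573 CPM in control libraries, with the highest value in Pex5-deficient replicate 2. Markers of monocytes and dendritic cells, lymphocytes, eosinophils and mast cells, and epithelium, endothelium and stroma each summed to at most 5.94 CPM in any library.

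None of the 10 genes passed the test between Pex5-deficient and control macrophages. In edgeR's quasi-likelihood test, adjusted by Benjamini-Hochberg over 11011 genes, 0 rose and 0 fell, and none had an unadjusted p under 0.05. DESeq2 and limma-voom each called 0 of them as well, against 6.86% and 2.94% of all genes tested. Over all genes tested 3.25% were called and 18.9% had an unadjusted p under 0.05. That count of 358 calls moved when 1 library was left out: it was 117, 523 and 219 without Pex5-deficient replicates 1, 2 and 3, and 76, 181 and 136 without control replicates 1, 2 and 3, with 0 of the 10 genes called each time. The log2 fold changes of the 10 genes, Pex5-deficient over control, ran from -0.18 to 0.44 with a median of 0.00, 5 above and 5 below 0. The median over all genes tested was 0.00. Together the 10 genes took 664.7 ± 82.7 CPM in Pex5-deficient and 668.7 ± 55.5 CPM in control macrophages (mean ± SD, n = 3 each). In sorted bulk cells, fewer cells with a transcript and less of it per cell cannot be told apart.

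**Figure D1:**
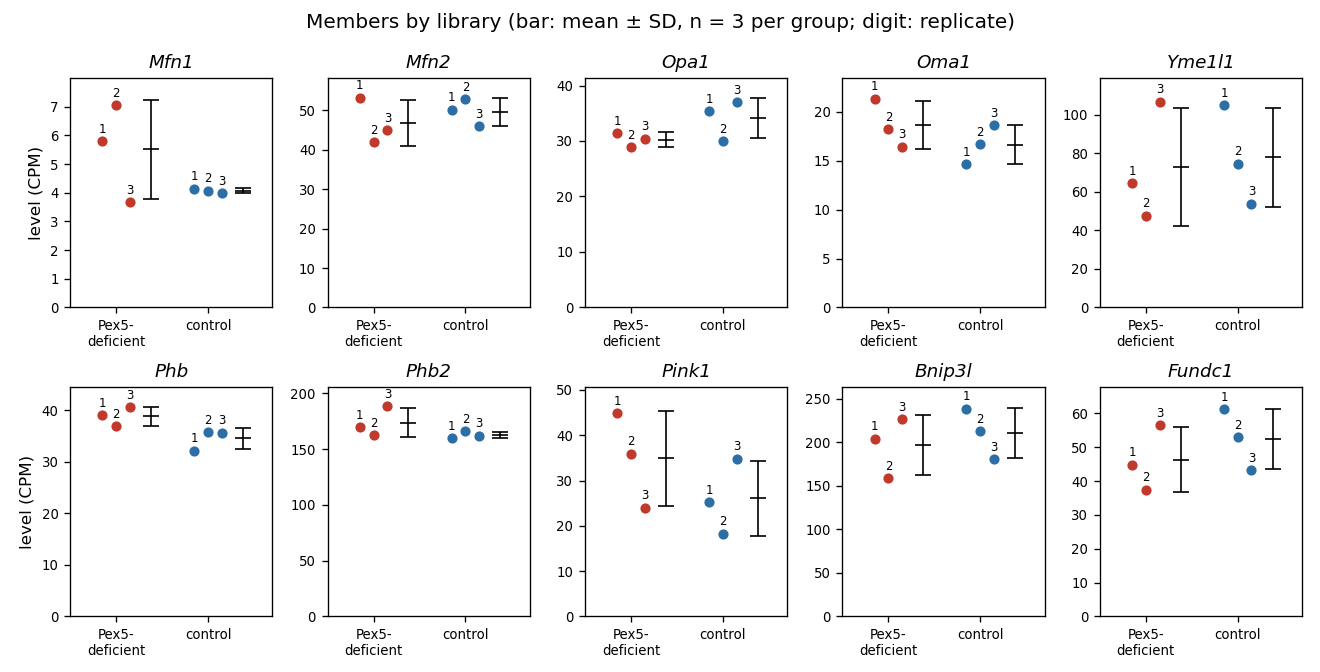
Level of each gene in CPM on a linear axis, with 1 point per library, its replicate number above it, and the mean ± SD of each group (n = 3) beside the points. The groups overlap for every gene but Phb, whose 3 Pex5-deficient libraries (36.9 to 40.6 CPM) sit above the 3 control libraries (32.2 to 35.8 CPM).

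Per length of transcript, the order of the 10 levels spanned a wide range. In CPM per kilobase of the longest coding transcript, Phb2 stood highest, at 132 ± 10.2 in Pex5-deficient and 123 ± 2.28 in control macrophages, and Bnip3l followed with 60.3 ± 10.6 and 64.6 ± 8.88 (mean ± SD, n = 3 each). Fundc1 (23.4 ± 4.86 and 26.4 ± 4.54), Phb (21.6 ± 1.03 and 19.2 ± 1.15) and Yme1l1 (15.5 ± 6.49 and 16.6 ± 5.48) came next in CPM per kilobase. Their ranges over the 6 libraries overlapped. Within single libraries Fundc1 stood above Yme1l1 in 6 of 6, Fundc1 above Phb in 5 and Phb above Yme1l1 in 4. Pink1, Mfn2 and Oma1 lay between 7.64 and 18.9 CPM per kilobase in single libraries, with Pink1 above Mfn2 in 3 of 6 and Mfn2 above Oma1 in 6 of 6, and Yme1l1 was above Pink1 in 3 of 6. Opa1 lay below them at 4.63 to 5.94, and Mfn1 was lowest at 0.805 to 1.55, so that neither overlapped its neighbours. Of the pair of mitofusins, Mfn2 was thus the more abundant transcript in these macrophages in both groups.

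The mitofusins gave no call. Mfn1 lies on chromosome 3 from 32529465 to 32579239 on the plus strand (GRCm38). It measured 5.79, 7.06 and 3.67 CPM in Pex5-deficient replicates 1 to 3, against 4.15, 4.07 and 3.98 CPM in control replicates 1 to 3. Replicates 1 and 2 of the Pex5-deficient group lay above all controls and replicate 3 below them, and the control libraries were nearly level. Mfn1 rests on 53 to 168 reads per library, the thinnest cover of the 10 genes, and its log2 fold change of 0.44 ± 0.26 (SE, n = 3 per group, adjusted p = 0.396) had a 95% interval from -0.15 to 1.03. Mfn2, on chromosome 4 from 147873599 to 147904704, measured 53.2, 41.9 and 45.0 CPM in Pex5-deficient replicates, against 50.1, 52.8 and 45.9 CPM in control replicates. These values overlapped, with the lowest and the highest both in the Pex5-deficient group. The log2 fold change was -0.09 ± 0.12 (adjusted p = 0.731), with a narrower interval from -0.36 to 0.18. Within a library, a measure that scaling does not touch, there were 9.19, 5.93 and 12.3 Mfn2 reads for each Mfn1 read in Pex5-deficient replicates, against 12.1, 12.99 and 11.5 in control replicates (exact permutation test, two-sided, p = 0.3, smallest possible p = 0.1).

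Opa1 and the proteases that cut its product did not pass either. Opa1, on chromosome 16 from 29579334 to 29654884, measured 31.4, 28.9 and 30.4 CPM in Pex5-deficient replicates, against 35.4, 30.0 and 37.0 CPM in control replicates. Control replicate 2 fell within the Pex5-deficient range, and the other controls lay above it. The log2 fold change was -0.17 ± 0.11 (adjusted p = 0.433, 95% interval -0.42 to 0.08). The counts are per gene, so the splice forms of Opa1, which differ in how they are cut, were not separated. Oma1, the stress-activated protease, on chromosome 4 from 103313812 to 103371868, measured 21.4, 18.2 and 16.5 CPM in Pex5-deficient replicates, against 14.6, 16.7 and 18.6 CPM in control replicates. Its groups overlapped, and its log2 fold change was 0.16 ± 0.15 (adjusted p = 0.600). Yme1l1, the constitutive protease, on chromosome 2 from 23156369 to 23199260, measured 64.7, 47.6 and 106.9 CPM in Pex5-deficient replicates, against 105.2, 74.7 and 53.9 CPM in control replicates. The groups covered almost the same range, and within each the highest library had about double the lowest. Its log2 fold change of -0.09 ± 0.31 (adjusted p = 0.907) had the widest interval of the 10 genes, from -0.80 to 0.62. The count of Oma1 reads per Yme1l1 read was 0.330, 0.383 and 0.154 in Pex5-deficient replicates, against 0.139, 0.224 and 0.345 in control replicates (exact permutation test, two-sided, p = 0.6).

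The prohibitins gave the narrowest intervals, and neither was called. Phb, on chromosome 11 from 95666957 to 95680773, measured 39.1, 36.9 and 40.6 CPM in Pex5-deficient replicates, against 32.2, 35.8 and 35.7 CPM in control replicates. It was the only one of the 10 genes whose groups did not overlap, where 26.1% of all genes tested did not overlap. The log2 fold change was 0.17 ± 0.10 (adjusted p = 0.386, 95% interval -0.05 to 0.39). Of the 100-base words of its transcript 42.8% also occur in other genes, and 36.5% occur in the predicted gene Gm7666, so its count is uncertain. Phb2, on chromosome 6 from 124712336 to 124716950, measured 170.0, 162.8 and 188.7 CPM in Pex5-deficient replicates, against 160.0, 165.9 and 162.0 CPM in control replicates. Its groups overlapped, with a log2 fold change of 0.10 ± 0.11 (adjusted p = 0.678, 95% interval -0.15 to 0.34). There were 4.35, 4.41 and 4.65 Phb2 reads for each Phb read in Pex5-deficient replicates, against 4.98, 4.64 and 4.54 in control replicates (exact permutation test, two-sided, p = 0.3).

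The promoters of the prohibitin pair are shown because their products are subunits of 1 ring and their read ratio was the steadiest of those compared. Each is the 250 bases before the RefSeq start (GRCm38.p6, plus strand), with motif matches on either strand in capitals. The motifs searched were CACGTG, the E-box bound by TFEB and TFE3, CCGGAAGT of ETS factors and GABP, GCGCATGC of NRF1, CCAAT, and TGACGTCA of CREB, and none of the matches shown overlaps another.
Phb (chr11:95666707-95666956): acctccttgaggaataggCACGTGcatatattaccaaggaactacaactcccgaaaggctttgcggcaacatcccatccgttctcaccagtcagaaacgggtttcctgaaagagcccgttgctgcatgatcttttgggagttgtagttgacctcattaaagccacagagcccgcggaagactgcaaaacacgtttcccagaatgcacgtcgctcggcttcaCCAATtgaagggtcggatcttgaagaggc
Phb2 (chr6:124712039-124712288): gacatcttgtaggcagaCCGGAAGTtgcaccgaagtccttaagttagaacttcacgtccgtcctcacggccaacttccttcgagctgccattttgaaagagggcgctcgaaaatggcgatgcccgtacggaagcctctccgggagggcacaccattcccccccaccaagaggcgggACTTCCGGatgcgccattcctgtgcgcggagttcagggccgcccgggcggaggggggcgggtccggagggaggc
The Phb window holds 1 E-box, a motif found in 6.02% of 32851 promoter windows of the same length, and 1 CCAAT, found in 33.8%. The Phb2 window holds 2 ETS matches, a motif found in 2.88% of windows, so these windows share none of the motifs searched. The Phb2 window ends at 124712288, short of the gene start at 124712336 in the GENCODE annotation. The bases directly after it were not found in a GENCODE transcript of Phb2, while those after the Phb window were found in one of Phb. NRF1's motif was found in 2.26% of windows and that of CREB in 1.55%. Of the 10 genes 9 had a promoter entry, and among them the E-box was found at Phb alone, and the NRF1 motif at Opa1 alone.

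Of the mitophagy genes, neither the kinase gene nor the receptor genes passed the test. Pink1, on chromosome 4 from 138313409 to 138326307, measured 44.9, 36.0 and 24.0 CPM in Pex5-deficient replicates, against 25.2, 18.3 and 34.8 CPM in control replicates. Replicates 1 and 2 of the Pex5-deficient group lay above all controls, while replicate 3 lay below 2 of them. The log2 fold change of 0.42 ± 0.27 (adjusted p = 0.439) had an interval from -0.19 to 1.03. Bnip3l, on chromosome 14 from 66985239 to 67008877, measured 204, 159 and 226 CPM in Pex5-deficient replicates, against 239, 212 and 181 CPM in control replicates, with a log2 fold change of -0.10 ± 0.16 (adjusted p = 0.793, 95% interval -0.47 to 0.27). A share of 15.3% of its words also occurs in a pseudogene, Bnip3l-ps, so part of its count is uncertain. Fundc1, on chromosome X from 17556564 to 17572325, measured 44.9, 37.4 and 56.6 CPM in Pex5-deficient replicates, against 61.2, 53.0 and 43.2 CPM in control replicates, with a log2 fold change of -0.18 ± 0.18 (adjusted p = 0.628, 95% interval -0.58 to 0.22). Both receptor genes had their groups interleaved. With scaling by library size alone, which put the median over all tested genes at 0.17, the values were 0.04 for Bnip3l, 0.03 for Yme1l1 and 0.07 for Mfn2, against negative values with the scaling used here.

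**Figure D2:**
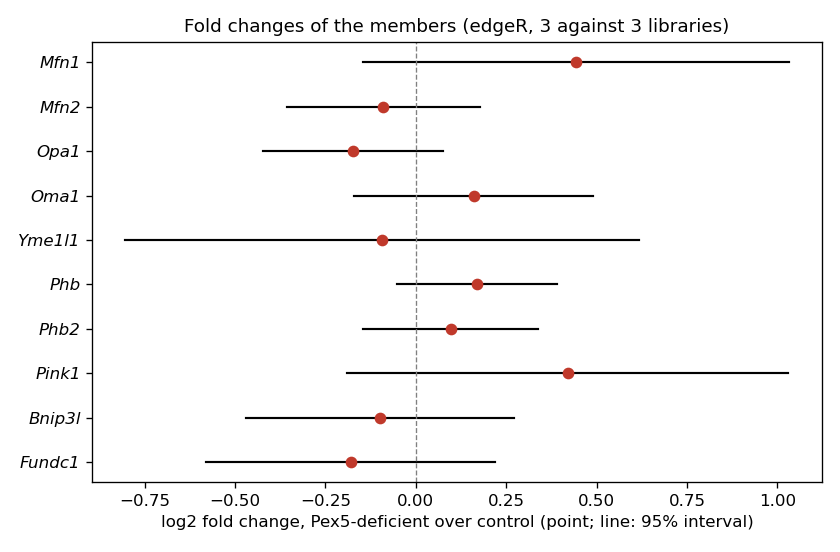
Log2 fold change of each gene, Pex5-deficient over control, as a point with its 95% interval as a line (edgeR, 3 against 3 libraries). All 10 intervals include 0, from the narrow one of Phb (-0.05 to 0.39) to the wide one of Yme1l1 (-0.80 to 0.62).

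The widest differences among these genes were between libraries of the same group. Yme1l1, Fundc1 and Bnip3l ranked the libraries alike, with Pex5-deficient replicate 3 above replicate 1 and replicate 2, and control replicate 1 above replicate 2 and replicate 3. This order was shared by 968 of 11011 genes tested, or 8.79%. The highest library exceeded the lowest by 2.25 times among Pex5-deficient and 1.95 times among control libraries for Yme1l1, by 1.51 and 1.42 times for Fundc1 and by 1.43 and 1.32 times for Bnip3l. Only 6.51% of genes tested had a larger such ratio than Yme1l1 in the Pex5-deficient group, and 8.43% in the control group. Pink1 was low where these 3 genes were high in the Pex5-deficient group, at 24.0 CPM in replicate 3. It was high where they were low in the control group, at 34.8 CPM in replicate 3. The opposition was partial. In control replicate 1, their highest, and Pex5-deficient replicate 2, their lowest, Pink1 was mid-level in its group (25.2 and 36.0 CPM). For Pink1 the highest library exceeded the lowest by 1.87 times in the Pex5-deficient and 1.91 times in the control group.

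Yme1l1, Fundc1 and Bnip3l share a low GC content of their transcripts, which the choice of genes did not use. It was 38.0% for Yme1l1, 38.8% for Fundc1 and 41.9% for Bnip3l, and 1.74%, 2.68% and 10.8% of tested genes lay lower. Pink1, at 59.0%, had the highest of the 10, above 93.5% of tested genes. The same library order appeared in 602 of 2192 genes in the lowest quintile by GC content (27.5%), against 37 of 2192 in the highest quintile (1.69%). In that lowest quintile the median deviation from the group mean, on the log2 scale, was 0.17 in Pex5-deficient replicate 3 and -0.12 in replicate 2, and 0.21 in control replicate 1 and -0.18 in replicate 3. Yme1l1 deviated by 0.63 and -0.54 in those Pex5-deficient libraries, and by 0.48 and -0.48 in those control libraries, with the same signs and a larger size. Opa1, at 43.5%, was also in the lowest quintile but had another order, with Pex5-deficient replicate 1 and control replicate 3 highest. Phb2, at 56.8% in the highest quintile, had 0.12 in Pex5-deficient replicate 3 and -0.09 in replicate 2. The medians of the highest quintile in those 2 libraries were -0.08 and 0.09. The part of GC content in these differences between libraries was not tested. Outside the 10 genes, 13 of 117 tested genes of the related lists had the library order of Yme1l1 (11.1%). Among them are Dnm1l, the gene of DRP1, and Slc25a46, a mitochondrial outer membrane protein, both named after their values were seen. Dnm1l had 27.9, 25.6 and 39.4 CPM in Pex5-deficient replicates, against 46.9, 37.1 and 31.7 CPM in control replicates.

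**Figure D3:**
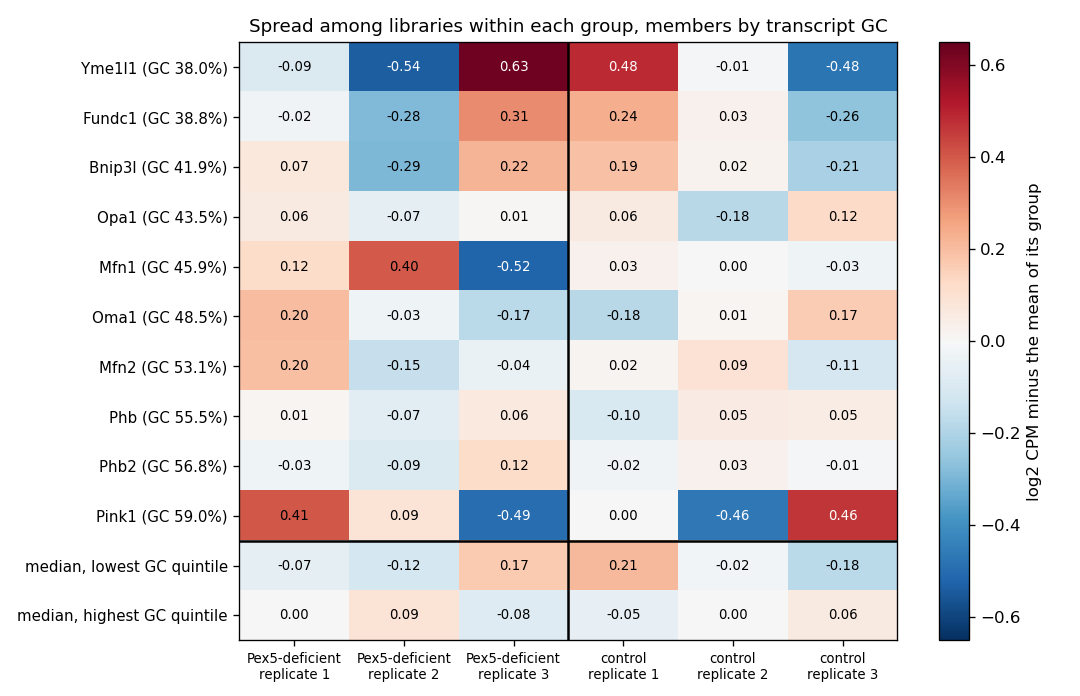
Log2 CPM of each gene minus the mean of its own group, with 1 column per library and genes from the lowest transcript GC content at the top to the highest at the bottom, above the medians of the lowest and highest quintile of all tested genes by GC content. Yme1l1, Fundc1 and Bnip3l are highest in Pex5-deficient replicate 3 and control replicate 1, and Pink1 is lowest in Pex5-deficient replicate 3 and control replicate 2.

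The neighbouring pathways also held no call. Of 117 tested genes (of 121) in 8 related lists, 0 were called by edgeR's quasi-likelihood test and 20 had an unadjusted p under 0.05 (17.1%, against 18.9% of all genes tested). For 29 of the 117 (24.8%) the groups did not overlap, near the 26.1% of all genes. DESeq2 called 3 (Optn, Tomm20 and Chchd6), all higher in Pex5-deficient macrophages, where it called 6.86% of all genes tested, and limma-voom called 0. Without Pex5-deficient replicate 2 there were 2 calls in these lists, where 4.75% of all genes tested were called, Mff higher (0.42, adjusted p = 0.0488) and Huwe1, a ubiquitin ligase, lower (-0.59, adjusted p = 0.0372).

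Among the partners and regulators of fusion, 0 of 15 tested genes were called, with a median log2 fold change of 0.07. Stoml2, a membrane organiser that binds prohibitins, measured 53.5, 48.8 and 49.9 CPM in Pex5-deficient replicates, against 43.7, 45.8 and 41.0 CPM in control replicates (log2 fold change 0.22 ± 0.10, adjusted p = 0.256). A gene on the opposite strand overlaps 16.6% of its exonic bases, and the strand setting of the counting is unknown. Miga1, which promotes fusion from the outer membrane, had -0.39 ± 0.26 at 1.33 to 1.60 CPM in Pex5-deficient and 1.82 to 2.18 CPM in control libraries. Of 11 tested fission genes 0 were called, with a median of 0.05. Mtfp1, an inner membrane protein of fission, measured 13.8, 14.9 and 14.7 CPM in Pex5-deficient replicates, against 9.94, 11.7 and 11.2 CPM in control replicates (0.40 ± 0.13, adjusted p = 0.148). Mff, the receptor that brings DRP1 to mitochondria and peroxisomes, measured 102.8, 78.4 and 102.4 CPM in Pex5-deficient replicates, against 77.2, 79.4 and 75.5 CPM in control replicates (0.29 ± 0.12, adjusted p = 0.259). Pex5-deficient replicate 2, which stood apart in its scaling, was within the control range.

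Of 23 tested genes around PINK1 and Parkin 0 were called, with a median of 0.04, 12 values above and 11 below 0. Among the lower ones, Usp8 had -0.34 ± 0.10 (adjusted p = 0.121) and Vcp -0.37 ± 0.12 (adjusted p = 0.144). Their groups did not overlap, and both are named after their values were seen. Optn, an adaptor that links ubiquitin on mitochondria to autophagosomes, measured 24.5, 15.0 and 18.9 CPM in Pex5-deficient replicates, against 5.87, 11.8 and 10.8 CPM in control replicates. All 3 Pex5-deficient libraries were above the controls, with a log2 fold change of 1.02 ± 0.27 and an adjusted p of 0.0872 by edgeR. It passed with DESeq2 (adjusted p = 0.0108), with edgeR scaled by library size alone (0.0117), and with edgeR and no filter on low counts (0.0322). It also passed with edgeR and an offset for transcript GC content, added after the data were seen (0.0481). It did not pass with limma-voom, a block for replicate number, the other scalings, the filter at a mean of 5 CPM, or any fit leaving 1 library out. Tomm20, an import receptor of the outer membrane, measured 72.9, 62.0 and 63.9 CPM in Pex5-deficient replicates, against 49.99, 53.7 and 43.4 CPM in control replicates (0.43 ± 0.12, adjusted p = 0.0899). It passed with DESeq2 (0.0471) and with a GC offset (0.0473), and with no other alternative. Park2, the gene of Parkin, named after its values were seen, measured 9.07, 16.1 and 15.3 CPM in Pex5-deficient replicates, against 7.51, 11.4 and 13.03 CPM in control replicates (0.34 ± 0.26, adjusted p = 0.523).

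Of 10 tested genes of other mitophagy receptors and their control 0 were called and none had an unadjusted p under 0.05, with a median of 0.01. Nipsnap1, a mitochondrial matrix protein that marks damaged mitochondria, had -0.80 ± 0.36 at 0.782 to 1.60 CPM in Pex5-deficient and 1.56 to 3.09 CPM in control libraries. Ulk1, the kinase that starts autophagy and phosphorylates FUNDC1, had 0.39 ± 0.29, with 10.9 CPM in Pex5-deficient replicate 2 and 5.32 to 5.74 CPM in the other 5 libraries. In core autophagy 0 of 30 tested genes were called, with a median of -0.08, 13 values above and 17 below 0. Among the lower ones, Wipi1, named after its values were seen, had -0.64 ± 0.19 (adjusted p = 0.111). Atg12, a ubiquitin-like conjugation factor, had 0.47 ± 0.13 (adjusted p = 0.0918) at 43.5 to 57.5 CPM in Pex5-deficient and 32.1 to 37.3 CPM in control libraries. It passed with a GC offset (0.0289) and with no other alternative. Atg4d, a protease for LC3-type proteins, had 0.43 ± 0.12 (adjusted p = 0.0938), and Kri1 on the opposite strand overlaps 19.3% of its exonic bases.

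Lists of mitochondrial structure and content gave small values. Of 11 tested genes of cristae organisation 0 were called, with a median of 0.09. Chchd6, a subunit of the MICOS complex, measured 17.0, 20.3 and 20.4 CPM in Pex5-deficient replicates, against 14.9, 12.4 and 13.4 CPM in control replicates (0.51 ± 0.13, adjusted p = 0.0841, and 0.0364 with DESeq2). It passed with no alternative but DESeq2. The MICOS gene 2410015M20Rik (Micos13) had 0.34 ± 0.11. Of 16 mitochondrial proteases and chaperones 0 were called, with a median of 0.08 and 15 values above 0. These 16 values ran from -0.04 to 0.35, and over all genes tested 5495 of 11011 were above 0. Pmpcb, a subunit of the mitochondrial processing peptidase, measured 49.9, 49.9 and 50.7 CPM in Pex5-deficient replicates, against 40.4, 40.0 and 42.1 CPM in control replicates (0.30 ± 0.09, adjusted p = 0.109). Clpp, a matrix protease, had 0.35 ± 0.11 (adjusted p = 0.123). Of 12 genes that mark mitochondrial content 0 were called, with a median of 0.04. After Tomm20, the smallest p was that of Timm23, an import channel, at 0.28 ± 0.11, and 85.8% of its words occur in other genes, so its count is uncertain.

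**Figure D4:**
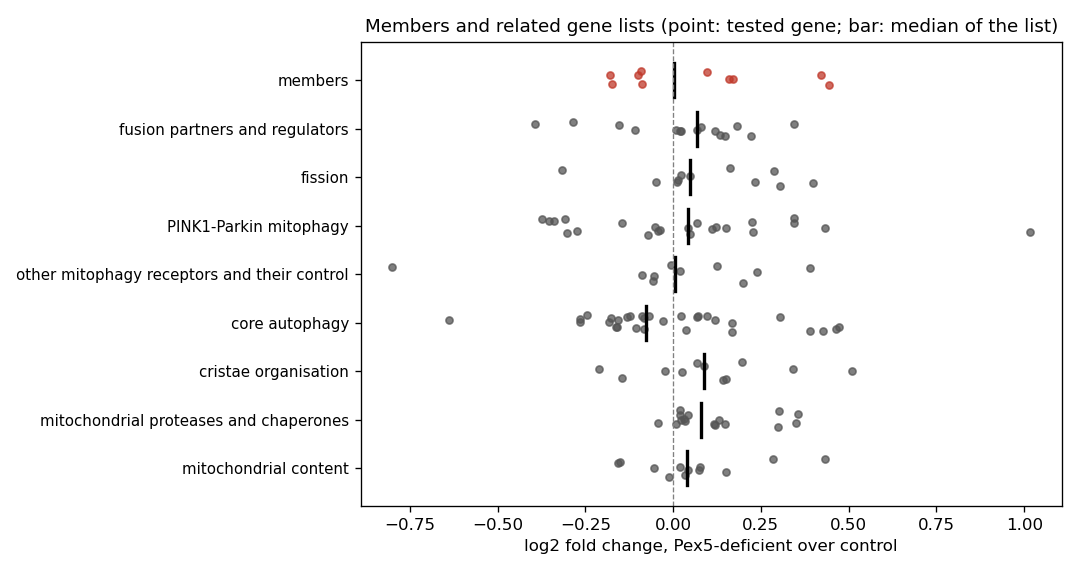
Log2 fold change, Pex5-deficient over control, of every tested gene in the 10 genes described here (top row, labelled members) and in 8 related lists, with 1 point per gene and a bar at the median of each list. List medians run from -0.08 (core autophagy) to 0.09 (cristae organisation), and Optn at 1.02 is the point farthest to the right.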

How the data were processed

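RNA-seq counts of 6 libraries were used. Per the labels' protocols, RNA came from 50000 sorted macrophages per sample, libraries were stranded SMART-Seq, and reads were single-end, 100 bases long. The gene counts are those the authors deposited, whole numbers per gene symbol, and the submitters' processing notes name STAR, featureCounts, R 4.3.2, DESeq2 1.40.1, GRCm38.p5 and mm10, without roles. The sources used here give neither the strand setting nor the annotation. No molecular identifiers are named, so counts are of reads and not of molecules.

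Libraries were grouped by genotype label. Whether samples came from different mice is unstated, so p-values measure the spread between samples, which may be technical. Genes were filtered with edgeR's filterByExpr (minimum count 10, minimum total 15), scaled by TMM and tested by edgeR 4.0.16 (glmQLFit, glmQLFTest, R 4.3.3), two-sided, threshold 0.05, adjusted over all 11011 genes tested. SEs derive from the F statistics. CPM uses the scaled library sizes. Alternatives used DESeq2 1.42.0, limma 3.58.1 and the settings of the closing section. The steps were tested on simulated counts of this comparison. Of genes set to differ by 1.5, 2 and 4 times, 19.4%, 75.1% and 99.5% were called. A gene without a call may thus still differ by a small factor.

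The genes and lists were chosen with earlier results of these data known. Named were every member, and in each related list the genes called or otherwise the 2 with the smallest p, and in marker lists the called and the most abundant gene. Coordinates, transcript lengths, GC content (of the longest coding transcript) and shared 100-base words come from GENCODE M21 (GRCm38). Symbols matched it for 24932 genes directly and 123 through older names, and 99.5% of tested genes had a GC value. Promoters are RefSeq's.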

Additional observations from a re-analysis of the deposited data

How the results depend on the processing

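No alternative called any of the 10 genes: each count was 0 under other scaling (DESeq2-type size factors, upper quartile, library size only), other filters, DESeq2, limma-voom, the replicate block, the GC offset and without any 1 library. With a mean of at least 5 CPM required, 9 of the 10 were tested, Mfn1 being left out. The smallest adjusted p any of the 10 reached was 0.171, for Mfn1. An unadjusted p under 0.05 in edgeR's test was reached by 2 of the 10 without Pex5-deficient replicate 3. It was reached by 1 without control replicate 3 and by 1 with scaling by library size alone, and in no other alternative. The sign of the log2 fold change differed from that reported in 4 of 15 alternatives for Yme1l1, 2 for Bnip3l and 1 for Mfn2, and in none for the other genes. Among these, Bnip3l was at 0.05 and Yme1l1 at 0.16 without Pex5-deficient replicate 2, and Yme1l1 was at 0.18 without control replicate 1 and 0.00 with the GC offset. Without control replicate 1 the log2 difference of the Oma1 to Yme1l1 ratio was -0.05, against 0.29.

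Over all genes the count of calls was 358, and it was 755 with DESeq2, 83 with the replicate block and 556 with the GC offset, an alternative chosen after seeing the data that lets each library follow its own trend of level on transcript GC content. Leaving out 1 library gave 76 (without control replicate 1) to 523 (without Pex5-deficient replicate 2). Scaling by library size alone called 289 higher and 132 lower, against 192 higher and 166 lower. The labels do not say whether shared replicate numbers pair the samples. The deviations of same-numbered samples correlated at -0.21, -0.06 and -0.41, and 0 of the samples correlated best with their own number. Deviations within groups of 3 also follow trends such as that with GC content, so these correlations cannot decide whether samples were paired. With 3 libraries per group, the 95% intervals reached 1.03 on the log2 scale for Mfn1 and Pink1. The causes of these differences were not tested.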
